A study of Saccharomyces cerevisiae with 11 samples.

Results

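A group of 10 reading frames without a standard gene name, all near chromosome ends, was followed on every array of the series: YEL075C, YEL076C, YEL076C-A, YFL064C, YFL065C, YFL066C, YHL049C, YLR462W, YLR464W and YPR203W. They are 10 of the 6256 genes on the arrays and were taken by systematic name. They had been listed because of their ratios and channel signals on these same arrays, so their values are given as a description and not as a test of how the frames were picked. The series compared budding yeast RNA on 11 Agilent arrays with 2 colours, 1 array per strain and treatment. With trichostatin A (TSA, an inhibitor of histone deacetylases, 10 µM for 1 hour), 5 arrays held strains deleted for ASF1, CHZ1, NAP1, RTT106 or VPS75, and 1 array (wt-TSA) held the parent BY4742. Without TSA, 5 arrays held the same deletion strains. Every strain derives from BY4742, an alpha strain that lacks HIS3, LEU2, LYS2 and URA3. The deletions were made one at a time by homologous recombination, and whether an array held more than 1 clone is not given in the sources used here. All strains grew at 30 °C in rich medium with glucose. The untreated chz1 array is labelled chz1-del-glucose, with glucose as its treatment. The reference on every array was read here as untreated BY4742. The channel labels of the TSA arrays of the deletion strains and of chz1-del-glucose name the untreated deletion strain instead, but the deleted gene was present in that channel.

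Yeast telomeres end in short repeats, behind which many chromosome arms carry one or more Y' elements, long blocks of nearly identical sequence. Intact Y' elements encode the helicase-like Yrf1 proteins, and many fragments of such blocks are annotated as short unnamed frames. Sir proteins, among them the deacetylase Sir2, silence chromatin near telomeres, and the histone variant H2A.Z, which Chz1 binds together with H2B, is known to limit the spread of that silencing. Asf1, Rtt106 and Vps75 are chaperones of histones H3 and H4, and Nap1 of H2A and H2B. The study's title concerns TSA and Chz1 in silencing at telomeres.

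By the RefSeq annotation of assembly R64, which lists all 10 frames as protein-coding genes without a name, YEL075C, YEL076C and YEL076C-A lie on chromosome V, YFL064C, YFL065C and YFL066C on VI, YHL049C on VIII, YLR462W and YLR464W on XII, and YPR203W on XVI. Between 1 and 3 annotated genes lie further out on the same arm. Several frames overlap another one: YEL076C overlaps YEL076C-A, YFL064C overlaps YFL065C, YLR464W overlaps the helicase gene YRF1-4, and YPR203W overlaps YPR202W. Each frame had 1 probe. No probe or genome sequence was used here, so how far a probe reads transcripts of the other frames was not tested. The 10 frames are therefore not counted as 10 separate measurements.

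The labels and arrays were checked first. Each deleted gene had a log2 ratio (experimental over reference RNA) between −4.53 and −2.86 on its own strain's arrays and between −0.39 and 0.39 elsewhere. NAP1 was low in the other channel on the untreated nap1 array, so that array was turned. The wt-TSA array offers no such check, so its direction was taken as on most other arrays and is not settled. The alpha genes MFALPHA1, MFALPHA2 and STE3 were above background in both channels on 11 of 11 arrays, with signals of at least 1591. Of the a genes, MFA1 was above background on 11 of 11 arrays too (reference signals 45 to 1350). MFA2 was so in the reference channel of 4 arrays, and STE2 in the reference channel of 10 (signals 35 to 108) and the experimental channel of 7. The median signal of a channel ran from 358 to 1097. Of the 6256 genes, 5921 passed a filter (above background, in either channel, on 50% or more of the deletion arrays), the 10 frames among them. The reference channels stood apart on 2 arrays: across genes, that of nap1-del correlated with the others at a median r of 0.805 and that of chz1-del-glucose at 0.927, against 0.987 to 0.994 on the other 9 arrays.

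Of the 10 frames, 9 had their lowest ratio of all 11 arrays in untreated chz1 deletion cells, and YFL064C had it on asf1-del-TSA. On chz1-del-glucose the median of the 10 frames was −1.46 (range −2.75 to −0.34), and 9 of 10 were at least 2-fold lower than in the reference, where 4.24% of all genes were. YEL076C-A stood at −2.75, YLR464W at −2.65 and YFL066C at −2.55. A further 6 frames lay between −1.59 and −1.30, and YFL064C at −0.34 was the exception. In bulk RNA such as this, fewer cells that transcribe a frame and less RNA per cell cannot be told apart. The 2 repeat measurements of a frame on this array differed by up to 0.64 on the log2 scale, less than the distance of those 9 frames from 0. With the spread of the arrays scaled to be equal, 3 of 10 frames were past 2-fold, where 0.253% of all genes were, and the median was −0.69.

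The low ratios on chz1-del-glucose came from both channels. YEL076C-A had a signal of 466 in chz1 deletion RNA, against 3426 in the reference. YLR464W had 514 in chz1 deletion RNA, against 3393 in the reference. YFL066C had 1541 in chz1 deletion RNA, against 8589 in the reference. Signals differ in brightness between arrays, so each was also expressed as a channel level. This is the log2 signal minus the median of its channel, relative to the median over the reference channels of the other arrays. On this scale the 10 frames had a median level of −0.71 (−1.78 to 0.37) in chz1 deletion RNA and of 0.84 (0.61 to 1.34) in the reference RNA. All 10 frames were thus higher in this reference than the median of the other arrays' references, 3 of them at least 2-fold (background 3.26%). In the deletion RNA 3 were at least 2-fold lower (background 7.26%). YFL064C had a level of 0.37 in the deletion RNA and of 0.68 in the reference, so its ratio below 0 lay with the reference.

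**Figure D1:**
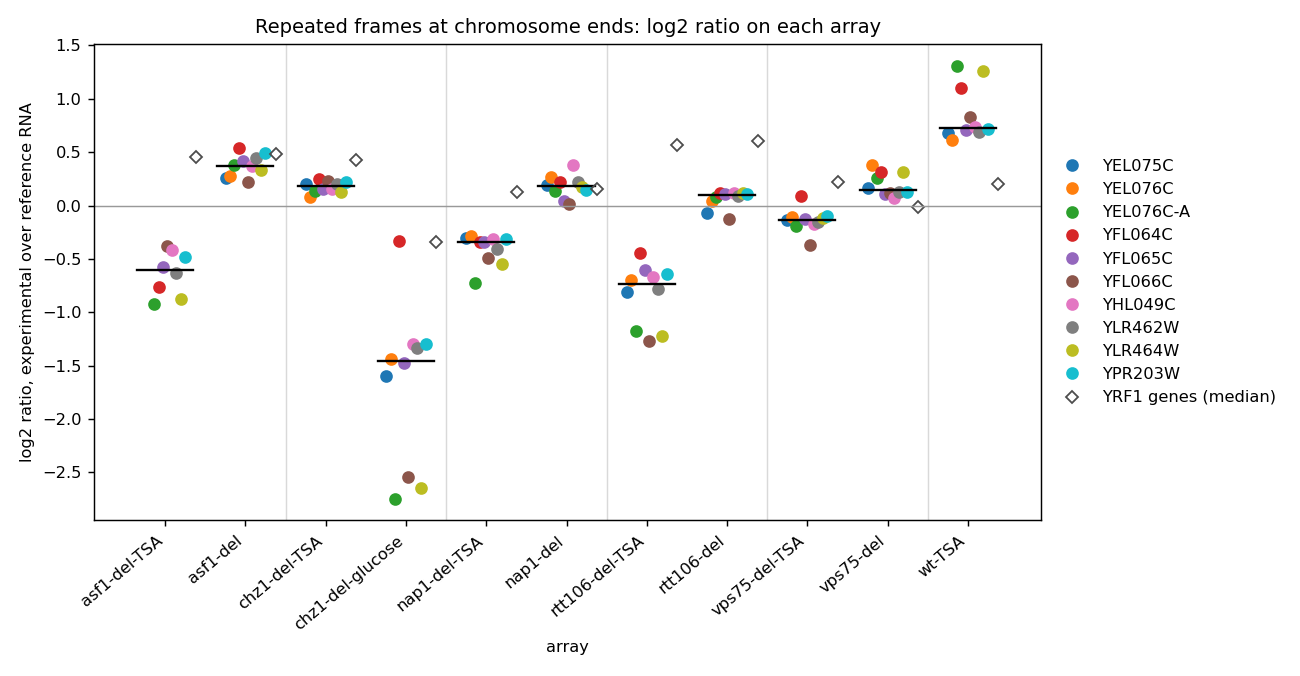
Log2 ratio of experimental over reference RNA (vertical axis) for the 10 frames on each of the 11 arrays, with TSA left of untreated within a strain; black lines are medians of the frames shown, and open diamonds medians of the 8 YRF1 genes. YEL075C and YEL076C are left out on asf1-del-TSA, where they were not above background. On chz1-del-glucose 9 frames lie below −1, while on chz1-del-TSA all 10 lie between 0.08 and 0.25.

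With TSA the frames stood near the reference in the chz1 deletion. On chz1-del-TSA the frames had a median ratio of 0.18 (0.08 to 0.25). YEL076C-A had a signal of 1060 in chz1 deletion cells with TSA, against 956 in the reference, and YLR464W had 1028, against 936. Within the chz1 strain the ratio was thus higher with TSA than without it for 10 of 10 frames, by a median of 1.59 (0.58 to 2.88). The level in the deletion RNA was higher by a median of 1.07, and the level in the reference was lower by 0.64. Both parts differ between 2 arrays whose references also differ. Across genes the log2 ratios of these 2 arrays correlated at r = −0.15. In the other strains the untreated and TSA arrays correlated at 0.80 (asf1), 0.45 (nap1), 0.86 (rtt106) and 0.77 (vps75). The difference in chz1 thus cannot be told apart from whatever set its untreated array apart, which was not tested.

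In asf1 and rtt106 deletion cells the order was the opposite. The signals of YEL075C (160) and YEL076C (208) in asf1 deletion RNA with TSA were under the background threshold of 263.3, so both are left out of the asf1 values with TSA, and no fold is given for them. The other 8 frames had a median ratio of −0.60 (−0.93 to −0.38) on asf1-del-TSA, against 0.40 (0.22 to 0.54) on asf1-del. These 8 lay above 0 without TSA and below 0 with it.

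On rtt106-del-TSA the median ratio was −0.74 (−1.26 to −0.44), against 0.10 (−0.13 to 0.12) on rtt106-del. YFL066C (−1.26), YLR464W (−1.22) and YEL076C-A (−1.18) were at least 2-fold lower than in the reference with TSA, where 0.709% of all genes were. The repeat measurements of the rtt106-del-TSA array differed by at most 0.09 for any frame. Here the difference lay in the experimental channel. Between the rtt106 arrays the level in the deletion RNA was lower with TSA by a median of 0.81 on the log2 scale, while that in the reference differed by a median of −0.04. For the 8 asf1 frames the values were −1.21 in the deletion RNA and −0.25 in the reference.

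The nap1 and vps75 strains gave smaller values of the same sign. On nap1-del-TSA the median ratio was −0.34 (−0.72 to −0.28), against 0.18 (0.02 to 0.38) on nap1-del. Between these arrays the median level differed by −1.91 in the deletion RNA and by −1.35 in the reference. Of this pair only the untreated array was turned, so a bias between the 2 colours would not cancel in its difference, which was not tested. On vps75-del-TSA the median ratio was −0.13 (−0.37 to 0.09), against 0.15 (0.07 to 0.38) on vps75-del. In vps75 the difference was not in the deletion RNA, whose median level differed by −0.05 between the arrays, but in the reference, which was 0.25 higher on the TSA array. In the series matrix the columns of the vps75 pair each held the other's values, and the sample files were followed here. Read the other way round, the vps75 difference would have the opposite sign.

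**Figure D2:**
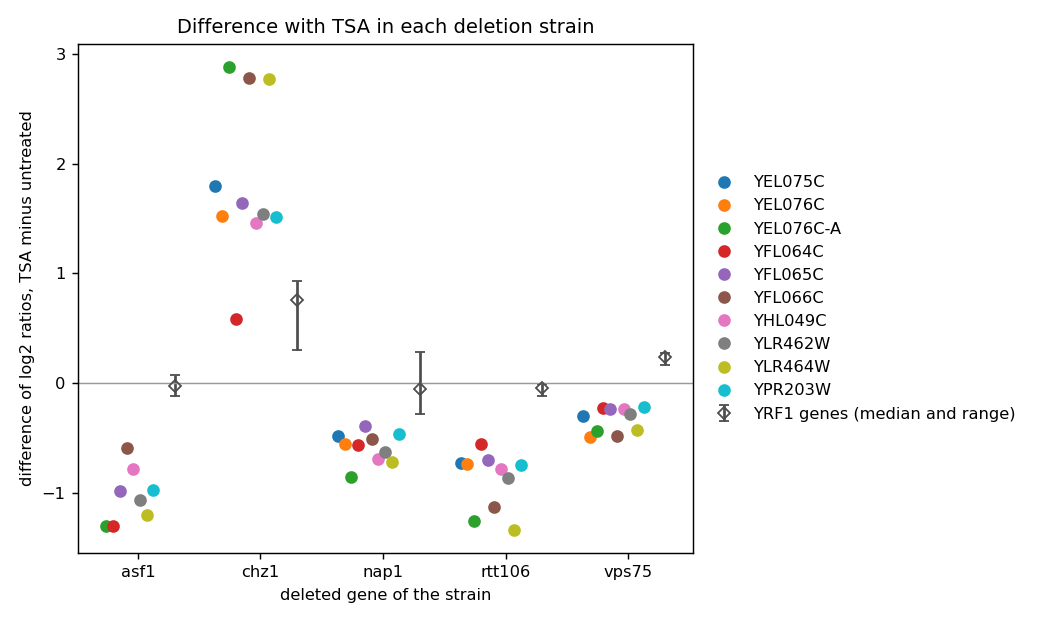
Difference of the log2 ratios, TSA minus untreated (vertical axis), for the 10 frames in each of the 5 deletion strains (horizontal axis), with the median and range of the 8 YRF1 genes as diamonds with bars (YEL075C and YEL076C, not above background on asf1-del-TSA, are left out of asf1). The frames lie below 0 in asf1, nap1, rtt106 and vps75 and above 0 in chz1.

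Set side by side, the differences between TSA and untreated arrays had medians of −1.03 in asf1 (8 frames, −1.30 to −0.60), −0.56 in nap1 (−0.85 to −0.39), −0.77 in rtt106 (−1.34 to −0.56) and −0.29 in vps75 (−0.49 to −0.22), against 1.59 in chz1. The 8 frames above background on every array were below 0 in 4 strains and above 0 in chz1, a pattern that 4.29% of all genes showed. For these 8 frames the highest TSA ratio of those 4 strains was under their lowest untreated ratio, and 0.878% of all genes showed the same. YEL075C and YEL076C were below 0 in nap1, rtt106 and vps75 and above 0 in chz1. These shares are a background and not a test, since the frames were listed with these ratios in view and may share reads.

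YEL076C-A shows the pattern in full. Its ratios with TSA were −0.93 in asf1, 0.14 in chz1, −0.72 in nap1, −1.18 in rtt106 and −0.19 in vps75 cells, against 0.38 in asf1, −2.75 in chz1, 0.13 in nap1, 0.08 in rtt106 and 0.25 in vps75 cells without TSA. Its TSA values were below its untreated ones in 4 of 5 strains, and chz1 was the exception. YFL064C, the frame with the mildest ratio on chz1-del-glucose, stood with TSA at −0.76 in asf1, 0.25 in chz1, −0.34 in nap1, −0.44 in rtt106 and 0.09 in vps75 cells. Without TSA it stood at 0.54 in asf1, −0.34 in chz1, 0.23 in nap1, 0.12 in rtt106 and 0.31 in vps75 cells. The signs of its differences are those of YEL076C-A, and the chz1 difference is 0.58 in place of 2.88. YFL066C stood with TSA at −0.38 in asf1, 0.23 in chz1, −0.49 in nap1, −1.26 in rtt106 and −0.37 in vps75 cells. Without TSA it stood at 0.22 in asf1, −2.55 in chz1, 0.02 in nap1, −0.13 in rtt106 and 0.11 in vps75 cells. It had the lowest ratio of the 10 on rtt106-del-TSA and the highest on asf1-del-TSA.

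Across the 5 strains as replicates, limma with strain as a block called no frame and 0 of the 5921 genes at an adjusted p of 0.05, with 254 genes at an unadjusted p under 0.05. Mean differences of the frames with TSA ran from −0.41 to 0.01 (SE 0.24 to 0.59), with adjusted p between 0.814 and 0.998. Leaving out the chz1 pair takes away the strain whose differences had the opposite sign, so that fit is no test of a decrease with TSA. Without the chz1 pair the means of the 8 frames above background ran from −0.97 to −0.58 (SE 0.10 to 0.15). The fit again called 0 of 5921 genes, with 461 at an unadjusted p under 0.05, and the adjusted p of these 8 frames lay between 0.0926 and 0.202. YEL076C-A then averaged −0.97 and YLR464W −0.92, each lower in 4 of 4 strains. With the vps75 arrays also exchanged the means ran from −0.74 to −0.44, and every adjusted p was 1. The spread behind these p-values is that between strains, the pair of arrays of a strain may share a culture, and the frames were not picked independently of the arrays tested.

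With the wt-TSA array read in the direction of most other arrays, the ratios in wild type cells with TSA were above 0. On wt-TSA, in this assumed direction, the median of the frames was 0.73 (0.61 to 1.31). YEL076C-A (1.31), YLR464W (1.26) and YFL064C (1.10) were at least 2-fold higher, where 0.22% of all genes were. Without the offset added to signals 5 of 10 were, against a background of 0.439%, and with the authors' deposited log ratio or the series matrix 5 of 10 were, against 1.6%. The repeat measurements differed by at most 0.15. YEL076C-A had a signal of 444 in wild type RNA with TSA, against 140 in the reference, and YLR464W had 414, against 134.

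In the assumed direction the channel levels place this difference in the reference. In wild type RNA with TSA the 10 frames had a median level of −0.14 (−0.28 to 0.09), close to the reference channels of other arrays. In the reference RNA of the wt-TSA array they had −0.88 (−1.55 to −0.71), and 3 of 10 were at least 2-fold lower than in other references (background 0.287%). If the array's channels ran the other way, the ratio would be −0.73 and the lower channel would be the one with TSA. The direction of this array cannot be told from the files.

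**Figure D3:**
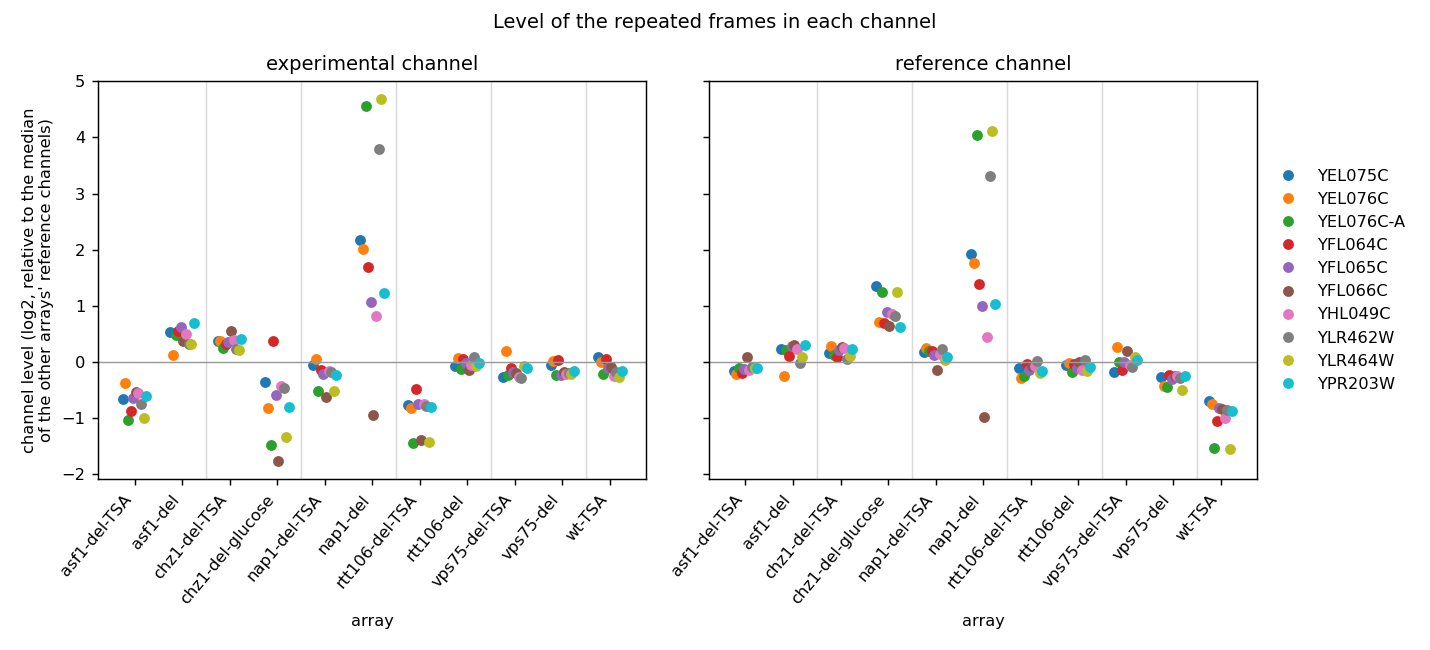
Level of the 10 frames (vertical axis, log2 relative to the median of the other arrays' reference channels) in the experimental channel (left) and the reference channel (right) of each of the 11 arrays. The reference levels stay within −0.51 to 0.30 on 8 arrays and leave that band on chz1-del-glucose, nap1-del and wt-TSA.

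The reference channels of the frames were otherwise steady. On the 8 arrays apart from chz1-del-glucose, nap1-del and wt-TSA, the reference levels of the 10 frames lay between −0.51 and 0.30. The signal of YEL076C-A in these references lay between 760 and 1023, that of YLR464W between 718 and 1041 and that of YPR203W between 690 and 840.

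On nap1-del the frames stood far apart from one another in both channels while their ratios, as normalized here, stayed between 0.02 and 0.38. YEL076C-A had a signal of 15631 in nap1 deletion RNA, against 10891 in the reference. YLR464W had 16913 in nap1 deletion RNA, against 11352 in the reference, and YLR462W had 9317, against 6708. The reference levels of these 3 frames were 4.04, 4.11 and 3.32 above those of other arrays on the log2 scale. YFL066C went the other way, with 1298 in nap1 deletion RNA, against 1270 in the reference, and a reference level of −0.98. In nap1 deletion RNA 8 of 10 frames were at least 2-fold higher than in other references, where 8.95% of all genes were. In the reference RNA itself 7 of 10 frames were at least 2-fold higher than in others, where 7.92% of all genes were, and 0 of 10 were at least 2-fold lower, where 10.7% were. The other unnamed Y' frames spread too, with 11 of 20 at least 2-fold higher and 2 lower, from −1.36 for YBL112C to 4.68 for YLR465C. Of the 8 YRF1 genes, 4 were at least 2-fold higher, with levels between 0.70 and 1.46. Experimental and reference RNA shared much of these levels, and the log2 ratios of the frames on this array, loess-normalized, were 0.02 to 0.38. For the bright YEL076C-A the value depended on the processing. It was 0.13 here, 0.46 by median centring and 0.52 by the authors' deposited log ratio. What set this reference apart from the others was not tested.

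The 8 YRF1 genes (YRF1-1 to YRF1-8), which encode the full-length helicase-like proteins, had other values on several arrays. In chz1, however, their difference with TSA had the sign of that of the frames. It was above 0 for 8 of 8, with a median of 0.75 (0.30 to 0.93), where 3018 of 5921 genes were above 0. With TSA the median ratio of the YRF1 genes was 0.45 in asf1, 0.43 in chz1, 0.13 in nap1, 0.56 in rtt106 and 0.22 in vps75 cells. Without TSA it was 0.48 in asf1, −0.34 in chz1, 0.16 in nap1, 0.60 in rtt106 and −0.01 in vps75 cells. On wt-TSA it was 0.21. In the fit without the chz1 pair their mean differences with TSA lay between −0.02 and 0.08, with adjusted p between 0.875 and 0.994. The pattern of differences below 0 in asf1, nap1, rtt106 and vps75 and above 0 in chz1 held for 0 of 8 YRF1 genes. Of all genes 4.29% showed it, so this count is near the background and does not set the YRF1 genes apart. Their profiles over the 11 arrays correlated with the median of the frames at r between −0.0046 and 0.409. The difference of means between frames and YRF1 genes was not tested, since the frames were chosen on these arrays.

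Other unnamed Y' frames differed in profile. Of 21 listed, 20 passed the filter. YBL111C, YHR218W, YER189W, YBL112C, YLR465C and YFL067W correlated with the median of the 10 frames at r above 0.9 over the 11 arrays, which share reference RNA. YBL111C (r = 0.99) stood at −1.34 on chz1-del-glucose, −0.47 on asf1-del-TSA, −0.63 on rtt106-del-TSA and 0.55 on wt-TSA. YLR465C stood at −1.59, −0.76, −1.20 and 0.34 on the same arrays in the same order, and its mean difference with TSA without chz1 was −0.51 (adjusted p = 0.0926). YML133C and YLL066C, at r of 0.27 and 0.37, stood at 0.44 and 0.39 on asf1-del-TSA. On chz1-del-glucose 5 of the 20 were at least 2-fold lower, where 4.24% of all genes were. In the chz1 strain the difference with TSA was above 0 for 19 of the 20, where 3018 of 5921 genes were. Its median was 1.01 (−0.55 to 1.87), so the sign seen for the 10 frames in chz1 was not particular to them. In asf1, nap1, rtt106 and vps75 the difference was below 0 for 15, 16, 19 and 11 of the 20. Of the 5921 genes 3006, 2944, 3130 and 2993 were below 0 there, so the vps75 count is near that share. The medians of the 20 were −0.07, −0.20, −0.21 and −0.03. The sign below 0 in asf1, nap1 and rtt106 was thus not particular to the 10 frames either.

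**Figure D4:**
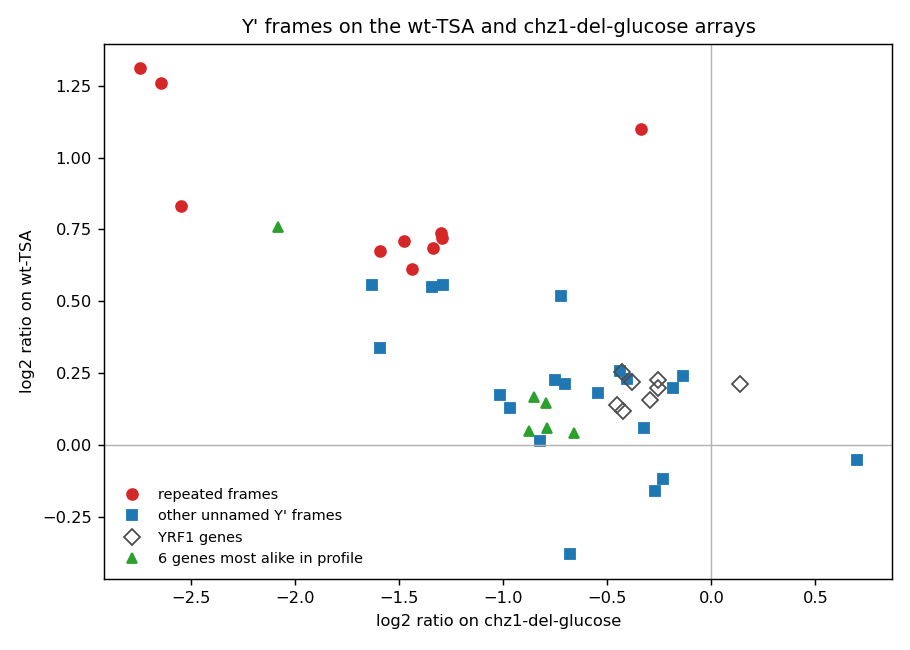
Log2 ratio on wt-TSA (vertical axis) against that on chz1-del-glucose (horizontal axis) for the 10 frames (circles), 20 other unnamed Y' frames (squares), 8 YRF1 genes (diamonds) and the 6 genes outside these lists with the most alike profile (triangles). The YRF1 genes lie between −0.45 and 0.14 on chz1-del-glucose, while 9 of the 10 frames lie between −2.75 and −1.30.

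The genes just inside the same chromosome arms had values nearer 0. Of 25 inner neighbours, 23 passed the filter, among them the COS genes COS4 and COS8 and the arsenic resistance genes ARR1, ARR2 and ARR3. Their median ratio on chz1-del-glucose was −0.12 (−0.87 to 0.52), with none past 2-fold. Of all genes 4.24% were at least 2-fold lower there and 2.2% higher, so that count is near the background. The median difference of the neighbours with TSA was 0.06 in asf1, 0.13 in chz1, −0.09 in nap1, −0.08 in rtt106 and −0.10 in vps75 cells. The 22 silencing and telomere factor genes, among them SIR1, SIR2, SIR3, SIR4 and RAP1, had median differences with TSA between −0.15 and 0.03 in the 5 strains. The fit over 5 strains called 0 of 5921 genes, so the lack of calls in either list sets neither apart. Its medians were −0.01 for the neighbours and −0.03 for the factors, against 0.00 for all genes.

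The frames resembled one another closely, with exceptions. The correlations include YEL075C and YEL076C on asf1-del-TSA, where neither was above background. Over the 45 pairs and 11 arrays the correlation of log2 ratios had a median of 0.97 and a range of 0.69 to 1.00. YEL076C-A and YLR464W, which lie on chromosomes V and XII, had r = 0.998 and differed by 0.06 on average (log2, absolute) and by at most 0.17 on any array. YFL065C on VI and YPR203W on XVI had r = 0.996, with a mean absolute difference of 0.06. The lowest r, 0.69, was that of YFL064C and YFL066C, both on VI, which differed by 2.21 on chz1-del-glucose. Without that array the r of this pair was 0.84. The overlapping frames YEL076C and YEL076C-A stood at −1.44 and −2.75 on chz1-del-glucose, so frames that share a stretch of the genome did not always share a value.

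Outside the lists, the genes with the profile most like the median of the frames were YGR269W (r = 0.96), SAH1 (0.95), ATG15 (0.94), YKR041W (0.93), YJL018W (0.93) and PRP18 (0.92), over 11 arrays. SAH1 encodes S-adenosylhomocysteine hydrolase, ATG15 a lipase of the vacuole and PRP18 a splicing factor. ATG15 stood at −2.08 on chz1-del-glucose and 0.76 on wt-TSA, while the other 5 lay between −0.88 and −0.66 and between 0.04 and 0.17 on these arrays. By rank correlation 2 of these 6 genes were again among the 6 most alike, and without chz1-del-glucose 3 were.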

How the data were processed

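The authors deposited, per the file headers, for every probe and channel 2 measured intensities and 1 merged intensity, and the log10 ratio of the merged values. The series matrix holds log2 values deposited by the authors. Scanner, background correction and scaling are not given in the sources used here. Here 50 was added to each signal, the log2 ratio of each repeat was loess-normalized, and the mean of the repeats was turned to experimental over reference (limma 3.58.1, R 4.3.3). Background was 2 times the median signal of URA3, LEU2, HIS3 and LYS2, which BY4742 lacks. The number of arrays, 1 per condition, limits the precision. TSA was fitted by lmFit and eBayes over 5921 genes with strain as a block, which pairs the arrays by design, and Benjamini-Hochberg adjustment at 0.05. Counts use 2-fold. RefSeq R64 matched 5756 of 6256 genes and all 10 frames, for names and neighbours alone. Members and lists were chosen with earlier results of these data known. Named genes were the 10 frames, the YRF1 genes, the 6 most alike genes and the 5 deleted genes; other Y' frames and neighbours were named after their values were seen.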

Additional observations from a re-analysis of the deposited data

Results flagged for a closer look

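For each of the 10 frames, the difference between TSA and untreated arrays lay above 0 in the chz1 deletion and below 0 in the asf1, nap1, rtt106 and vps75 deletions. In chz1 it was 1.80 for YEL075C, 1.52 for YEL076C, 2.88 for YEL076C-A, 0.58 for YFL064C and 1.64 for YFL065C. It was 2.78 for YFL066C, 1.46 for YHL049C, 1.54 for YLR462W, 2.77 for YLR464W and 1.52 for YPR203W. For YEL075C and YEL076C the asf1 value rests on a signal not above background on the TSA array. In the other 4 strains the values of YEL076C-A lay between −1.30 and −0.44, and those of YFL064C between −1.30 and −0.23. The difference between chz1 and the other 4 strains was not tested, because each strain has 1 array with TSA and 1 without, and the frames were chosen with these values known. The probes may also read shared sequence, so these are not 10 separate results. Across genes the ratios of the 2 chz1 arrays correlated at r = −0.15, lower than in the other strains' pairs (0.45 to 0.86).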

How the results depend on the processing

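Over 78 values of the median of all 10 frames (2 of them not above background on asf1-del-TSA, where the median is −0.67), from 11 arrays and the other ways of processing, 77 kept the sign of the reported value, and rtt106-del by the rounded series matrix was at 0.00. Most moves exceeded the small gap between repeat measurements. Without the offset the medians were −0.75 (asf1-del-TSA), −1.61 (chz1-del-glucose), −0.37 (nap1-del-TSA), −0.89 (rtt106-del-TSA), −0.15 (vps75-del-TSA) and 0.95 (wt-TSA). Median centring gave −0.62 (asf1-del-TSA), 0.32 (asf1-del), 0.12 (chz1-del-TSA), −1.54 (chz1-del-glucose), −0.39 (nap1-del-TSA), 0.20 (nap1-del), −0.70 (rtt106-del-TSA), 0.053 (rtt106-del) and −0.19 (vps75-del-TSA). The deposited log ratio gave −0.52 (asf1-del-TSA), 0.45 (asf1-del), −1.69 (chz1-del-glucose), −0.35 (nap1-del-TSA), 0.30 (nap1-del), −0.73 (rtt106-del-TSA), 0.14 (rtt106-del), −0.17 (vps75-del-TSA), 0.19 (vps75-del) and 1.18 (wt-TSA). The series matrix gave −0.49 (asf1-del-TSA), 0.14 (chz1-del-TSA), −1.67 (chz1-del-glucose), −0.26 (nap1-del-TSA), 0.26 (nap1-del), −0.68 (rtt106-del-TSA), 0.0688 (vps75-del) and 1.15 (wt-TSA). Scaling the arrays to equal spread gave −0.46 (asf1-del-TSA), −0.69 (chz1-del-glucose), −0.50 (nap1-del-TSA), 0.22 (nap1-del), −0.61 (rtt106-del-TSA), 0.21 (vps75-del) and 0.96 (wt-TSA). Repeat measurement 1 alone gave −0.72 (asf1-del-TSA), −1.55 (chz1-del-glucose), −0.37 (nap1-del-TSA) and −0.74 (rtt106-del-TSA). Measurement 2 alone gave −0.69 (asf1-del-TSA), 0.21 (chz1-del-TSA), −0.36 (nap1-del-TSA), 0.16 (nap1-del), −0.74 (rtt106-del-TSA), 0.0845 (rtt106-del), −0.14 (vps75-del-TSA) and 0.75 (wt-TSA). The wt-TSA array turned gave −0.73 by construction, and the 8 frames above background gave −0.60 on asf1-del-TSA. The cause of the other moves was not tested.

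Without the replicate block, which pairs the arrays of a strain, limma again called 0 genes and 0 frames (146 genes at an unadjusted p under 0.05, against 254 with it), with the same mean differences. Leaving out each strain's pair in turn called 0 genes each time. The mean difference of the 10 frames then had medians between −0.69 (without chz1) and 0.05 (without asf1). It ranged from −0.74 to 0.070 for YEL075C, from −0.97 to 0.081 for YEL076C-A, from −0.58 to 0.076 for YFL065C, from −0.68 to 0.30 for YFL066C, from −0.92 to 0.10 for YLR464W and from −0.60 to 0.022 for YPR203W. YFL066C, at 0.01 over 5 strains, came to −0.034 by median centring, −0.019 by the authors' deposited log ratio, −0.25 by equal spread and −0.062 by measurement 1 alone. With the untreated deletion strain taken as the reference of the TSA arrays, as labelled, these arrays alone called 408 genes and 0 frames, with YFL066C at −0.45. The deleted gene had a signal of at least 716 in that channel. With wild type as the reference, as read here, those calls mix deletion and TSA and are not a TSA effect. Alternatives added after seeing the data left out chz1 and nap1, which called 23 genes and 3 frames (YEL076C, YEL076C-A and YLR464W; YFL066C at −0.74; the frames were listed from these arrays, so this count is no test of them, and YEL076C was not above background on asf1-del-TSA), or left out chz1 with the vps75 arrays exchanged, which called none (87 genes at an unadjusted p under 0.05; YFL066C at −0.44). Low signal limits YEL075C and YEL076C on asf1-del-TSA.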

Other observations

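YOR396W (YRF1-8) was the YRF1 gene with a ratio above 0 on chz1-del-glucose, at 0.14, where the other 7 lay between −0.45 and −0.26. YFL063W, a neighbour of the frames on chromosome VI, stood at 0.70 on chz1-del-glucose, at 0.45 on asf1-del-TSA and at −0.05 on wt-TSA, and its profile over the 11 arrays correlated with the median of the frames at r = −0.66. Next to them on the same chromosome, YFL068W had a reference level on nap1-del of 4.09 and YFL067W of 3.97 above the other arrays (log2), while the frame YFL066C stood at −0.98.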
